A study of Mus musculus with 6 samples.

Results

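The genes described are those of the proteasome in lungs of CD1 mice, an outbred strain, with and without a short ventilation 1 week earlier. They were chosen by symbol, as genes whose name begins with Psma, Psmb, Psmc, Psmd, Psme, Psmf or Psmg followed by a digit. The rule found 49 of the 22180 genes measured. Of these, 47 make proteasome subunits, activators, inhibitors or assembly chaperones. Psmc3ip, a partner of the meiotic recombinases, and Psme3ip1, a partner of the Psme3 activator, carry such symbols without being subunits and were counted apart.

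Lung tissue came from mice aged 10 weeks, and 100 ng of total RNA from each mouse was hybridised to an array of its own. The 3 intact mice had a sham procedure. The 3 preconditioned mice had been ventilated at low pressure for 90 minutes, and their lungs were taken 1 week later. No other allele or agent is named for either group, and the labels do not say how the ventilated mice were handled in the week between.

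The proteasome is the protease that degrades proteins tagged with ubiquitin. Its core is a barrel of alpha rings around beta rings, with the active sites on the inner face of the beta rings. The regulatory particle caps the barrel, binds and unfolds the tagged protein with a ring of ATPases, and removes the ubiquitin. Interferon induces replacement catalytic subunits, Psmb8, Psmb9 and Psmb10, which make the immunoproteasome. That form is abundant in leukocytes and yields peptides suited to MHC class I.

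The values are log2 intensities after RMA, and a difference is the preconditioned minus the intact mean. Array medians lay between 5.32 and 5.40, but the groups did not overlap. The lowest preconditioned median, 5.39 in replicate 3, was above the highest intact one, 5.37 in replicate 1. For the upper quartile of each array the order was reversed. The highest preconditioned value, 6.95 in replicate 3, was below the lowest intact one, 6.97 in replicate 1. Markers of lung epithelium were bright in all lungs. Their mean level over 8 markers was 10.77 to 11.04 in intact and 10.71 to 10.75 in preconditioned lungs. Of these 8, 6 had a difference below 0, 1 at an unadjusted p under 0.05 in limma. All 6 lung endothelium markers were below 0, 1 at that p. Their mean level was 10.26 to 10.48 in intact and 9.89 to 10.33 in preconditioned lungs. The 1 red cell marker measured, Slc4a1, was at -0.67. Lungs differed in heart muscle RNA: the mean level of 7 markers was 7.94, 7.67 and 8.33 in intact replicates 1, 2 and 3 and 5.64, 9.25 and 7.41 in the preconditioned ones. Preconditioned replicate 1 therefore stood apart with little, and preconditioned replicate 2 with most. Of 18 leukocyte markers, 17 had a difference below 0, 11 at an unadjusted p under 0.05 and 0 after adjustment. Their mean level was 6.90 to 7.26 in preconditioned and 7.47 to 7.99 in intact lungs. Of all genes 47.3% were below 0 and 11.6% were lower at that p. Among genes above the median level of all genes these shares were 64.6% and 20.1%. In whole tissue, fewer cells of a type and less RNA per cell cannot be told apart.

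No proteasome gene passed the test for a difference between preconditioned and intact lungs. In limma, with Benjamini-Hochberg adjustment over all genes and a threshold of 0.05, 0 of 47 were called, beside 0.0947% of all genes (21 genes). At an unadjusted p under 0.05, 13 of the 47 were lower and 2 higher, where 11.6% of all genes were lower and 7.53% higher. The groups lay apart in 14 genes on the lower side and 4 on the higher side, beside 13.0% and 11.7% of all genes. The 13 lower genes were the regulatory particle genes Psmd7, Psmd11, Psmd1, Psmc2, Psmd8, Psmd12 and Psmd14, the core genes Psma1 and Psmb2, the assembly chaperones Psmg2 and Psmd5, the activator Psme3 and the inhibitor Psmf1. The higher ones were Psma8 and Psmd13.

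The differences were small. They ran from -0.40 (Psmd7, 1.32-fold lower) to 0.52 (Psma8, 1.43-fold higher), with standard errors from 0.081 to 0.20. The median over the 47 genes was -0.10, beside 0.013 over all genes. Most of the 47 are bright, and bright genes were lower in general in these values. Of the 5851 genes with a mean level from 7 to 9, 22.6% were lower and 4.38% higher at an unadjusted p under 0.05, and the median difference was -0.11. The groups lay apart in 25.2% of them on the lower and in 6.61% on the higher side. Of the 35 proteasome genes in that band, 12 were lower (34.3%) and 1 higher, 13 were apart on the lower side (37.1%) and 3 on the higher, and the median was -0.18.

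**Figure D1:**
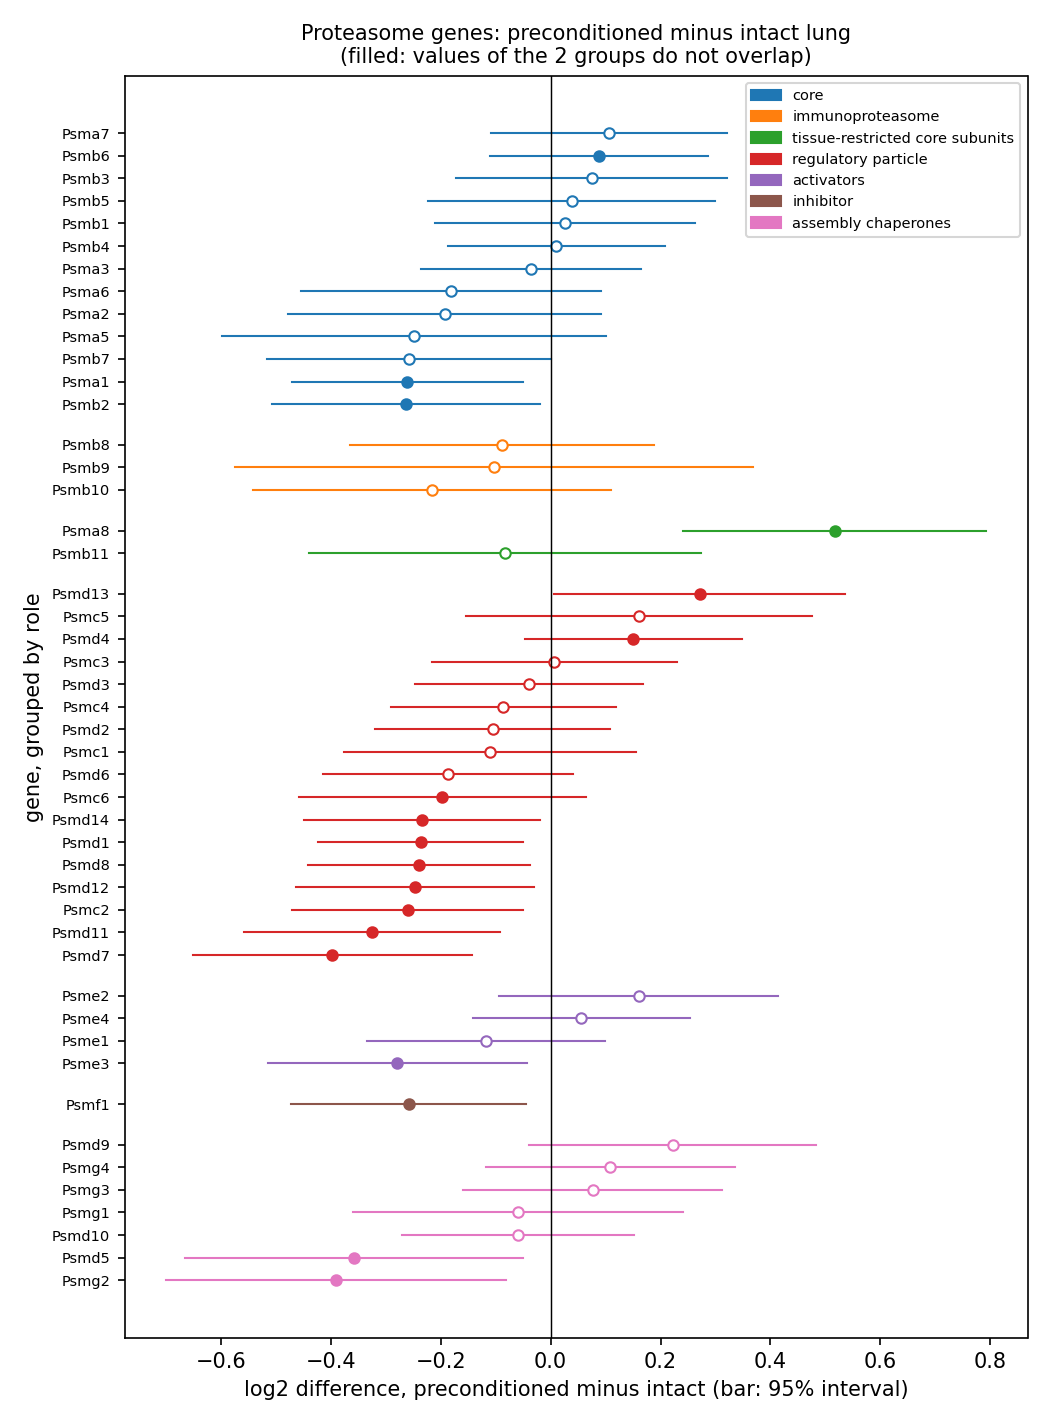
Log2 difference, preconditioned minus intact, of the 47 proteasome genes, grouped by role, with 95% intervals from limma. Filled points mark genes whose values do not overlap between the 3 intact and 3 preconditioned lungs. Of 14 filled points on the lower side 8 are regulatory particle genes, and intervals of the immunoproteasome genes all cross 0 in these deposited values.

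The count of lower genes depended on the scaling of the arrays. When the deposited values were quantile normalized a second time, 2 of 47 were lower (Psmd7 and Psmg2) and 4 higher (Psma8, Psmd4, Psmd13 and Psmd9) at an unadjusted p under 0.05. In the same values 14.2% of genes of level 7 to 9 were lower and 9.13% higher. Cyclic loess gave the same counts of 2 and 4, beside 14.1% lower and 9.25% higher among genes of that level. In the deposited values the lower count was 14, 5 and 7 without intact replicate 1, 2 and 3 in turn. It was 7, 11 and 5 without preconditioned replicate 1, 2 and 3 in turn. Over these fits with 1 lung left out, the share of all genes lower was 7.43% to 15.2%. Of the 47 genes, 28 kept the sign of their difference in every alternative in which they could be fitted, and Psmd7, Psma8 and Psmd13 were among them. Limiting the genes by level, changing the variance prior or blocking by replicate number leaves a difference unchanged. Only the other alternatives could therefore change a sign, and the same count over all genes is not given.

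All 17 regulatory particle genes named by the symbol rule were measured, all at a mean level between 7 and 9. Of these, 13 had a difference below 0 (76.5%), beside 69.2% of all genes of that level. At an unadjusted p under 0.05, 7 were lower (41.2%) and 1 higher, beside 22.6% and 4.38% of all genes of that level. The groups lay apart in 8 genes on the lower side (47.1%) and 2 on the higher, beside 25.2% and 6.61%. No test compared these shares. The median difference was -0.19. A further quantile normalization gave -0.085 and cyclic loess -0.074, each with 1 of 17 genes lower (5.88%) and 2 higher, beside 14.2% of genes of level 7 to 9 lower with the former and 14.1% with the latter. The count of 7 lower genes was 7, 4 and 4 without intact replicate 1, 2 and 3 in turn. It was 6, 6 and 3 without preconditioned replicate 1, 2 and 3 in turn. Over the fits with 1 lung left out, the share of all genes lower was 7.43% to 15.2%. The regulatory particle median was -0.10 without preconditioned replicate 1, which held little heart muscle RNA.

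Psmd7 is a scaffold subunit of the lid, the part of the particle that holds the deubiquitinase. Its values were 8.55, 8.86 and 8.86 in intact lungs and 8.30, 8.37 and 8.42 in preconditioned ones. All preconditioned values lay under the lowest intact value, which was that of intact replicate 1. The difference was -0.40 (SE 0.11, 95% interval -0.65 to -0.14, adjusted p = 0.128 in limma). A second quantile normalization gave -0.29. Without intact replicate 1 it was -0.50 with an adjusted p of 0.0338, and it was also past the threshold with array weights (adjusted p = 0.0442). These settings called 1228 and 1125 of all genes, in place of 21. Leaving out any other lung called 0 proteasome genes. Psmd7 was the regulatory particle gene with the lowest p.

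Psmd11, another lid subunit, was at 8.92, 8.98 and 9.07 in intact lungs and at 8.58, 8.81 and 8.61 in preconditioned ones. The groups did not overlap, with preconditioned replicate 2 nearest to the intact values (difference -0.32, SE 0.10, adjusted p = 0.152 in limma). Psmd12, also of the lid, was at 8.19, 8.35 and 8.41 and at 8.03, 8.11 and 8.08. Its difference was -0.25 (SE 0.094, adjusted p = 0.212 in limma). Intact replicate 1 was the intact value closest to the preconditioned ones in Psmd7, Psmd11 and Psmd12.

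Psmd14, the deubiquitinase that cuts the ubiquitin chain from the substrate, was at 7.61, 7.67 and 7.52 in intact and at 7.42, 7.41 and 7.26 in preconditioned lungs. The groups were apart, with a difference of -0.23 (SE 0.093, adjusted p = 0.227 in limma). Psmd8, a lid subunit, was at 8.93, 8.92 and 9.02 against 8.79, 8.72 and 8.65. Its difference was -0.24 (SE 0.088, adjusted p = 0.199 in limma). Both genes had tight groups, with SDs from 0.055 to 0.090.

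Psmd1, the large scaffold of the base, had the lowest standard error of the 47 genes. It was at 8.46, 8.42 and 8.48 in intact and at 8.20, 8.20 and 8.24 in preconditioned lungs. The gap between the groups was wider than the range within either, and the difference was -0.24 (SE 0.081, adjusted p = 0.180 in limma). A probe set that Psmd1 shares with Armc9 gave 0.23 with overlapping groups. Psmc2, a subunit of the ATPase ring, was at 8.22, 8.39 and 8.26 against 8.03, 8.09 and 7.97, again apart (difference -0.26, SE 0.091, adjusted p = 0.185 in limma). A second, dimmer probe set of Psmc2 (mean level 5.57) gave 0.097, so that the direction for this gene depends on the probe set.

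Psmd13, a lid subunit, lay on the other side of 0. It was at 7.51, 7.34 and 7.15 in intact lungs and at 7.72, 7.53 and 7.56 in preconditioned ones. The groups were apart on the higher side by a narrow margin, with intact replicate 1 just under preconditioned replicate 2 (difference 0.27, SE 0.12, adjusted p = 0.251 in limma). Psmd4, a ubiquitin receptor of the particle, was also apart on the higher side, at 7.43, 7.52 and 7.54 against 7.68, 7.67 and 7.60 (difference 0.15, SE 0.086, adjusted p = 0.373 in limma). Lid subunits thus did not all lie on one side of 0.

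Of the 6 ATPase genes, Psmc2 was the one at an unadjusted p under 0.05. Psmc6 was apart on the lower side (difference -0.20), where preconditioned replicate 1, at 8.35, was far below the other preconditioned values of 8.69 and 8.68. Psmc1 was at -0.11, Psmc4 at -0.086, Psmc3 at 0.0070 and Psmc5 at 0.16. The non-ATPase genes not yet given were Psmd6 (-0.19), Psmd2 (-0.11) and Psmd3 (-0.040), all with overlapping groups. The median difference was -0.098 over the 6 ATPase genes and -0.23 over the 11 non-ATPase genes.

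**Figure D2:**
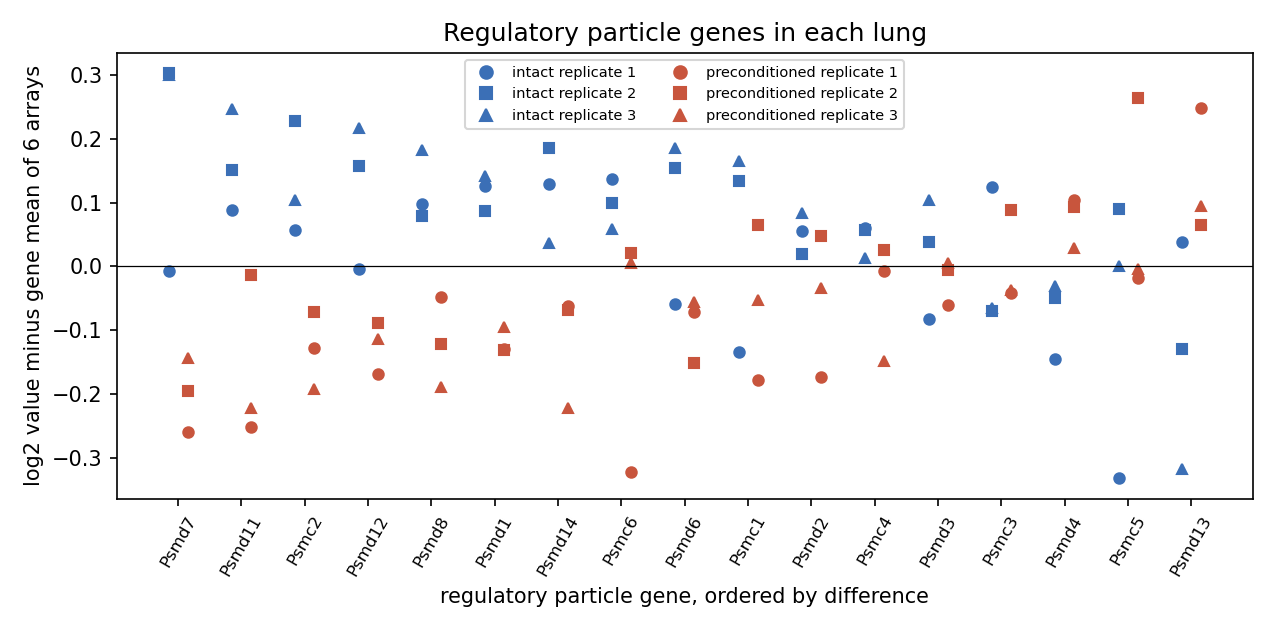
Log2 value of each regulatory particle gene in each lung, as the deviation from the gene's mean over the 6 arrays; blue marks the 3 intact and red the 3 preconditioned lungs, and the shape gives the replicate. Genes at the left, from Psmd7 to Psmc6, have all red points under all blue ones, and Psmd4 and Psmd13 at the right have the reverse.

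Sequence before the start of transcription is shown for the regulatory particle genes at an unadjusted p under 0.05 that have a window, 6 lower ones and Psmd13, so that genes on both sides of 0 can be set side by side. Each run is the 100 bases before the RefSeq start in assembly GRCm38.p6, read 5′ to 3′ on the gene's strand. Capitals mark CCGGAAG, the core of sites for ETS transcription factors, on either strand.
Psmd11, chr11:80428515-80428614, plus strand: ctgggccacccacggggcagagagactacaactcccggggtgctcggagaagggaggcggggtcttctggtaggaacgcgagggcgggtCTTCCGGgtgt
Psmd12, chr11:107479428-107479527, plus strand: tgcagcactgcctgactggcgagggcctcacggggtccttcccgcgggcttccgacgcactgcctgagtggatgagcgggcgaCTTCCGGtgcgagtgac
Psmc2, chr5:21785175-21785274, plus strand: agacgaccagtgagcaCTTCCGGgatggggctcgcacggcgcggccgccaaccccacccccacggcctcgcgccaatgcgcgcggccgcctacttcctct
Psmd1, chr1:86064519-86064618, plus strand: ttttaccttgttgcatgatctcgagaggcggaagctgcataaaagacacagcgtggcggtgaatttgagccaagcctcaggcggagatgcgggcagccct
Psmd8, chr7:29180674-29180773, minus strand: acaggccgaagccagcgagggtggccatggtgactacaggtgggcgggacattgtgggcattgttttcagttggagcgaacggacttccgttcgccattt
Psmd14, chr2:61711594-61711693, plus strand: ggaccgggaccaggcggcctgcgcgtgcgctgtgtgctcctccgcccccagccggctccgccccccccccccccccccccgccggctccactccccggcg
Psmd13, chr7:140882294-140882393, plus strand: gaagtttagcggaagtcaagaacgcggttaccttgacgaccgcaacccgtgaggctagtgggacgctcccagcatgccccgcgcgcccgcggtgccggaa
Psmd7 has no entry in the table used. Psmc6 and Psmd4, whose groups also lay apart but with a higher p, are not shown, and their matches begin 100 and 125 bases before the start. For Psmc2, the more upstream of its 2 listed starts is shown. The match in Psmd13 begins 6 bases before the start and runs past it, so it is not in capitals.

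Such matches were searched in windows from 250 bases before to 50 after each start, which were found for 39 of the 47 genes (42 windows). CCGGAAG was in 15 of 42 windows (35.7%), beside 8.9% of all 32851 windows. The members' windows were richer in G and C (median 57.3% against 52.7%). Among windows with at least 60% G and C the share was 10 of 16 for members and 16.6% for all. It was found for 9 of 14 regulatory particle genes. It did not separate the lower genes: 4 of 10 lower genes with a window had it, and 10 of 29 others. The heat shock element, read as GAA, TTC and GAA with any 2 bases between them, was in 0 of 42 windows and 0.6% of all. The core of the interferon-stimulated response element, read as GAAA, any 2 bases and GAAA, was in 5 windows (11.9% beside 3.4%), those of Psmb3, Psmd4, Psmd9, Psme1 and Psmg4. The antioxidant response element core, TGACNNNGC, which is bound by the proteasome gene activator Nfe2l1 and its relative Nfe2l2, was in 6 windows (14.3% beside 12.4%). These motifs were read on both strands, do not overlap one another in the stretches shown, and are descriptions of letters.

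In the deposited values the median difference of the core particle was smaller in size than that of the regulatory particle (-0.19). Of its 14 constitutive subunit genes, 13 were measured with a probe set of their own. Among these, 7 had a difference below 0 (53.8%) and 6 above, beside 47.3% of all genes and 69.2% of genes of level 7 to 9 below 0. At an unadjusted p under 0.05, 2 were lower (15.4%), beside 11.6% of all genes and 22.6% of genes of that level. The median was -0.036. A further quantile normalization gave 0.077 for the core and -0.085 for the regulatory particle. Cyclic loess gave 0.094 and -0.074. The sign of the core's median thus depends on the scaling, and so does which part has the smaller median in size. In those settings 0 of 13 core genes were at an unadjusted p under 0.05. Of genes of level 7 to 9, 14.2% were lower and 9.13% higher with the former, and 14.1% and 9.25% with the latter.

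Psma1, of the alpha ring that gates the barrel, was at 7.97, 8.15 and 8.01 in intact and at 7.72, 7.83 and 7.80 in preconditioned lungs. No value overlapped (difference -0.26, SE 0.092, adjusted p = 0.186 in limma). Psmb2, a structural beta subunit, was apart by the smallest of margins, with intact replicate 3 and preconditioned replicate 2 both at 8.23 (difference -0.26, SE 0.11, adjusted p = 0.231 in limma). The other alpha genes overlapped between the groups, at -0.25 for Psma5, -0.19 for Psma2, -0.18 for Psma6, -0.036 for Psma3 and 0.11 for Psma7. The structural beta genes Psmb1, Psmb3 and Psmb4 lay between 0.010 and 0.075. Psma5 was dim (mean level 4.51), and its second probe set gave 0.11.

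Psma4 shared its probe sets with another symbol, AY074887, and was not counted. The brighter of these (mean level 8.15) was at 8.24, 8.57 and 8.31 in intact and at 7.80, 8.02 and 7.96 in preconditioned lungs. Those values do not overlap (difference -0.45). The dimmer one (4.09) was apart on the higher side, at 0.30, so that the 2 probe sets disagree.

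Mean deviations over all members of a part show each lung. For the regulatory particle they were 0.0089, 0.0902 and 0.0840 in intact replicates 1, 2 and 3 and -0.0921, -0.0104 and -0.0806 in the preconditioned ones. For the core they were 0.0089, 0.0742 and 0.0434 and then -0.102, 0.0200 and -0.0445. The groups were apart for the regulatory particle and overlapped for the core, where preconditioned replicate 2 lay above intact replicate 1. Genes of level 7 to 9 gave -0.0037, 0.0889 and 0.1050 and then -0.0592, -0.0869 and -0.0440, so the groups were apart there too. Of the 30 core and regulatory particle genes, 11 had their lowest value in preconditioned replicate 1 and 10 their highest in intact replicate 3. Heart muscle RNA was lowest in preconditioned replicate 1, and its part in these values was not tested.

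**Figure D3:**
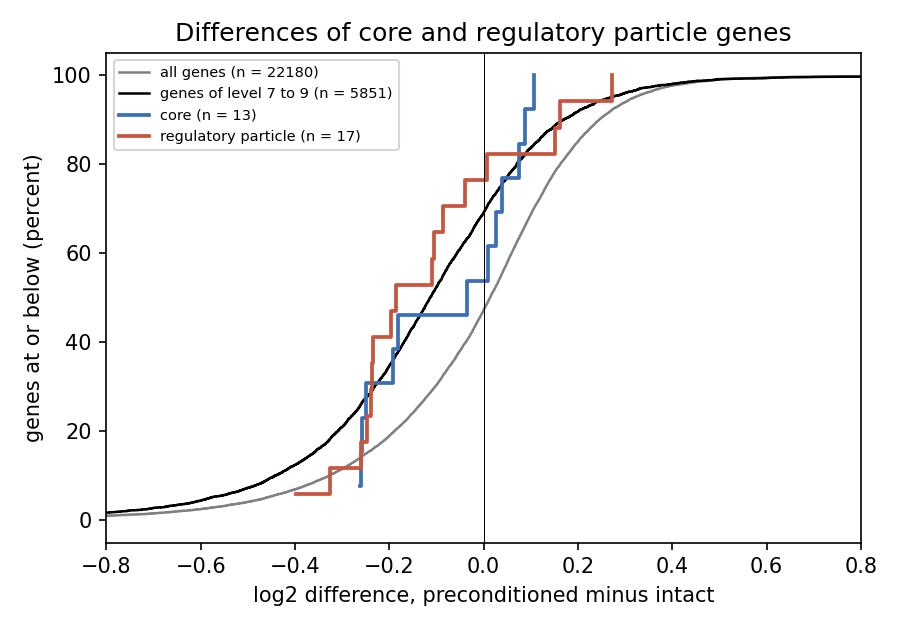
Cumulative share of genes at or below each log2 difference, preconditioned minus intact, for all 22180 genes, the 5851 genes of level 7 to 9, the 13 core genes and the 17 regulatory particle genes. The curve of level 7 to 9 lies left of that of all genes, and the regulatory particle lies left of it in the middle of its range, while the core crosses it.

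The 3 catalytic sites of the constitutive core are on Psmb5, the chymotrypsin-like site, Psmb6, the caspase-like site, and Psmb7, the trypsin-like site. In the immunoproteasome Psmb8 takes the place of Psmb5, Psmb9 that of Psmb6 and Psmb10 that of Psmb7. The 100 bases before the starts of Psmb5 and Psmb6 are shown because each holds the antioxidant response element core, in capitals (RefSeq, GRCm38.p6, 5′ to 3′). Unlike the other starts used for stretches shown, that of Psmb6 does not coincide with the edge of its RefSeq gene.
Psmb5, chr14:54617996-54618095, minus strand: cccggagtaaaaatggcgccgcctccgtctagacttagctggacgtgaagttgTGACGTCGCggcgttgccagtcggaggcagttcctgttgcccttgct
Psmb6, chr11:70525257-70525356, plus strand: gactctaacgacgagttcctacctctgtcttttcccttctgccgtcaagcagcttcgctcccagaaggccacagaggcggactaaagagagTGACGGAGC

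The constitutive catalytic genes gave differences of both signs. Psmb5 was at 7.77, 7.79 and 7.76 in intact lungs and at 7.69, 8.04 and 7.70 in preconditioned ones. Only preconditioned replicate 2 stood away from the rest (difference 0.038, SE 0.11, 95% interval -0.22 to 0.30). Psmb6 was at 7.72, 7.73 and 7.70 against 7.76, 7.89 and 7.75, apart on the higher side by a small step (difference 0.088, SE 0.087, adjusted p = 0.609 in limma). Psmb7 was at 8.62, 8.92 and 8.89 against 8.48, 8.67 and 8.52 and overlapped through intact replicate 1 (difference -0.26, SE 0.11, adjusted p = 0.264 in limma).

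The immunoproteasome genes gave no detectable difference. Psmb8 was at 7.94, 8.23 and 7.98 in intact and at 8.11, 7.80 and 7.98 in preconditioned lungs. The groups lay within each other (difference -0.089, SE 0.12, 95% interval -0.36 to 0.19, adjusted p = 0.7198 in limma). Psmb9 was at 7.15, 7.57 and 7.23 against 7.65, 6.84 and 7.14. Preconditioned replicates 1 and 2 were the highest and the lowest of all 6 lungs, and the difference was -0.10 (SE 0.20, 95% interval -0.57 to 0.37, adjusted p = 0.812). Psmb10 was at 8.10, 8.16 and 8.43 against 8.23, 7.77 and 8.05, again overlapping (difference -0.22, SE 0.14, 95% interval -0.54 to 0.11, adjusted p = 0.438).

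All 3 genes had their highest preconditioned value in replicate 1 and their lowest in replicate 2. Over the 3 genes the mean deviation was 0.196, -0.326 and -0.0737 in preconditioned replicates 1, 2 and 3 and -0.0683, 0.190 and 0.0822 in the intact ones. The median difference was -0.10, -0.32 without preconditioned replicate 1 and -0.19 without intact replicate 1. It was 0.0013 without intact replicate 2 and -0.0074 without preconditioned replicate 2. Tap1, a gene of the transporter that carries their peptides, was at 8.80, 7.92 and 8.02 in the preconditioned and 8.29, 8.46 and 7.89 in the intact lungs, so its highest value too was in preconditioned replicate 1. The mean level of 18 leukocyte markers was 7.12, 6.90 and 7.26 in preconditioned replicates 1, 2 and 3 and 7.47, 7.99 and 7.94 in the intact ones. It too was lowest in preconditioned replicate 2, while its highest preconditioned value was in replicate 3. In intact lungs it had the same order as the mean deviation over the 3 immunoproteasome genes. Psmb10 alone had another order there, with its highest intact value in replicate 3. Heart muscle RNA was lowest in preconditioned replicate 1 and highest in preconditioned replicate 2. The part of leukocyte and heart muscle RNA in the spread was not tested.

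The balance of each inducible subunit against the constitutive one it replaces was compared within each lung, as the log2 value of the first minus that of the second. Only the change between groups is read, since 2 probe sets have no common level. Psmb8 minus Psmb5 was 0.28 ± 0.15 (SD, n = 3) in intact and 0.15 ± 0.35 in preconditioned lungs, a change of -0.13 (exact permutation test, two-sided p = 0.80). Psmb9 minus Psmb6 went from -0.40 ± 0.22 to -0.59 ± 0.47, a change of -0.19 (exact permutation p = 0.60). Psmb10 minus Psmb7 went from -0.58 ± 0.16 to -0.54 ± 0.33, a change of 0.041 (exact permutation p = 0.90). All 3 adjusted p were 0.90 over the 3 pairs, and 3 lungs against 3 cannot give an exact p under 0.10. In each pair preconditioned replicate 2 had the lowest balance and replicate 1 the highest of all 6 lungs, except for Psmb8 minus Psmb5, where intact replicate 2 (0.45) was above preconditioned replicate 1 (0.42).

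**Figure D4:**
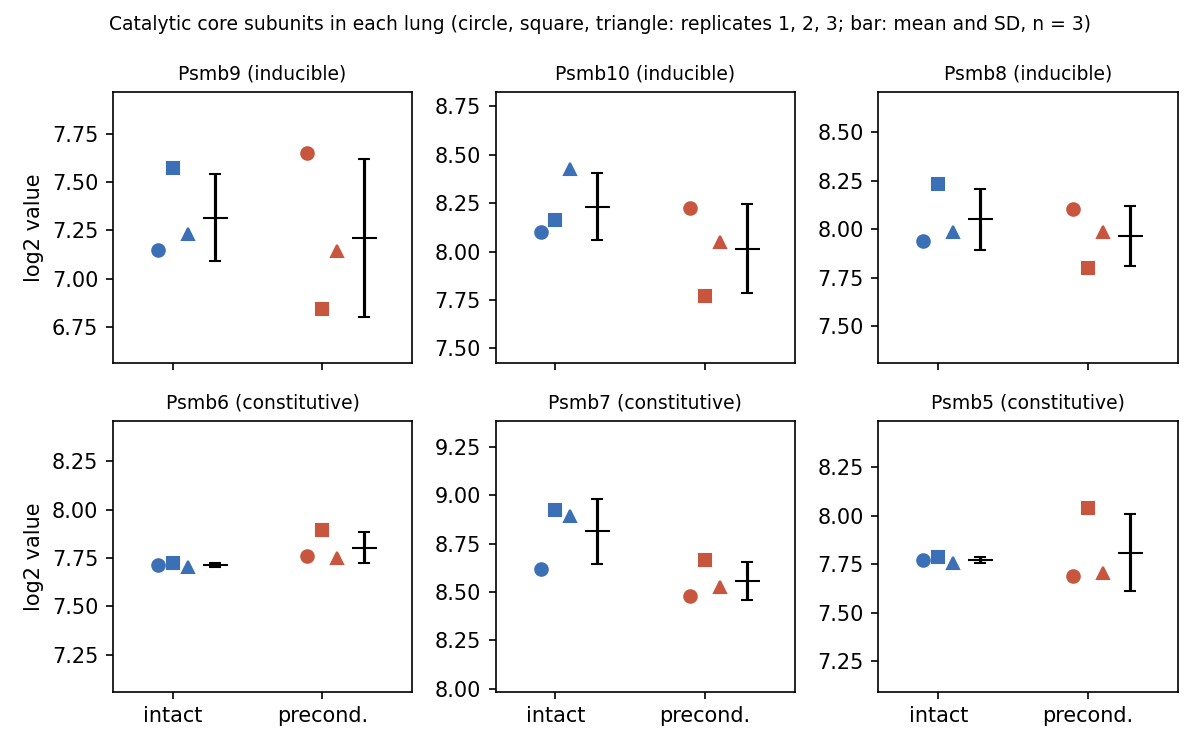
Log2 value of the inducible catalytic genes (top) and the constitutive genes they replace (bottom) in each lung, with mean and SD of 3 lungs per group; each panel spans the same range on the log2 scale. Inducible genes spread widely within the preconditioned lungs, from 6.84 to 7.65 for Psmb9, while the intact values of Psmb5 and Psmb6 lie within a narrow range.

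Alternative activators bind the core in place of the regulatory particle. Psme1 and Psme2 make the interferon-inducible activator ring together. Psme1 was at 9.57, 9.54 and 9.52 in intact and at 9.54, 9.43 and 9.30 in preconditioned lungs, overlapping (difference -0.12, SE 0.094, adjusted p = 0.527 in limma). Psme2 was at 6.94, 6.74 and 6.68 against 6.80, 7.04 and 6.996, also overlapping and on the other side of 0 (difference 0.16, SE 0.11, adjusted p = 0.462). A probe set that Psme2 shares with other symbols gave -0.059. Psme3, the nuclear activator, was apart at 7.25, 7.42 and 7.49 against 7.05, 7.22 and 7.05 (difference -0.28, SE 0.10, adjusted p = 0.199 in limma). Psme4, a single-chain activator, was at 0.056 with overlapping groups.

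Psmf1, which makes the core inhibitor PI31, was at 7.64, 7.82 and 7.74 in intact and at 7.46, 7.55 and 7.41 in preconditioned lungs. All 3 preconditioned values were under all intact ones (difference -0.26, SE 0.093, adjusted p = 0.194 in limma). Psme3 and Psmf1, like Psmg2, Psmd5, Psmb2, Psmd4, Psmc6 and the probe sets of Psma4, are given in each lung because of their values.

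Assembly chaperones lay on both sides of 0. Psmg2, which with Psmg1 helps the alpha ring form, was at 6.80, 7.16 and 6.89 against 6.55, 6.38 and 6.76. The groups were apart by a small margin (difference -0.39, SE 0.13, adjusted p = 0.180 in limma), and a second, dim probe set gave 0.0497. Psmg1 itself was at -0.059. Psmd5, a chaperone of the ATPase ring, was at 7.73, 8.19 and 8.18 in intact lungs and at 7.67, 7.67 and 7.68 in the preconditioned ones. Intact replicate 1 lay close to these (difference -0.36, SE 0.13, adjusted p = 0.205 in limma). Without that lung the difference was -0.51 and the adjusted p 0.0283, where 1228 of all genes were called. Psmd9 and Psmd10, the other chaperones of that ring, were at 0.22 and -0.059, and Psmg3 and Psmg4 at 0.076 and 0.11.

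Psma8, an alpha subunit known from testis, gave the lowest p of all members. It was at 4.92, 4.86 and 4.87 in intact and at 5.63, 5.20 and 5.37 in preconditioned lungs. All preconditioned values lay above all intact ones (difference 0.52, SE 0.12, 95% interval 0.24 to 0.79, adjusted p = 0.0976 in limma). With array weights the adjusted p was 0.0375, where 1125 of all genes were called. The level of Psma8 was under the median of all genes, where the array measures little above background. Psmb11, a catalytic subunit of thymus cortex, was dim too (mean level 4.56) and overlapped (-0.083). Of 6 measured thymus markers, itself among them, 5 were dim. The 4 dim proteasome genes were Psma5, Psma8, Psmb11 and Psmg4.

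Genes that work with the proteasome were taken from lists made by function. All of their measured members were above the median level of all genes (5.95), and of the 11090 genes above it 64.6% had a difference below 0, 20.1% were lower and 5.50% higher at an unadjusted p under 0.05. Of 9 partners outside the symbol rule 8 were measured, with 7 below 0, 3 lower and 1 higher at an unadjusted p under 0.05, and 0 called after adjustment. Usp14, the deubiquitinase that docks on the particle, was at -0.43 (7.31, 7.73 and 7.72 against 7.19, 7.10 and 7.17). Ube3c, a ubiquitin ligase that acts at the proteasome, was at -0.31 and Akirin2, which carries proteasomes into the nucleus, at -0.24. Sem1, a small lid subunit, was at 0.31, with all of its preconditioned values (9.49, 9.79 and 9.73) above the intact ones (9.39, 9.41 and 9.29).

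Shuttle and extraction factors bring tagged proteins to the particle. All 9 measured of 11 were below 0, beside 64.6% of genes above the median level, and 4 were lower at an unadjusted p under 0.05, beside 20.1%: the ubiquilins Ubqln1 (-0.36), Ubqln2 (-0.33) and Ubqln4 (-0.47), and Nploc4 (-0.25), a cofactor of the segregase Vcp. Vcp itself was at -0.025. None passed after adjustment (0 of 9). Of 6 ubiquitin and E1 genes, 1 was measured under its own symbol, the E1 enzyme Uba6, which fell by 0.92 (adjusted p = 0.0399 in limma). Its values of 7.24, 7.48 and 7.40 against 6.39, 6.36 and 6.60 do not overlap, and its difference exceeds that of any proteasome gene.

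Nfe2l1, the transcription factor that raises proteasome genes when the protease is blocked, was at 0.054 with overlapping groups. Nfe2l2, its relative of the oxidative stress response, was at -0.40 and apart (9.68, 9.85 and 9.75 against 9.38, 9.37 and 9.32, adjusted p = 0.0921 in limma). In the MHC class I peptide path 11 of 13 genes were measured, with 3 lower (27.3%) and 0 higher at an unadjusted p under 0.05, beside 20.1% and 5.50% of genes above the median level, and 0 called. The lower ones were the light chain gene B2m (-0.55), the trimming protease Erap1 (-0.38) and the chaperone Calr (-0.40). Of the 11, 8 were below 0 and 5 had groups apart on the lower side, beside 64.6% and 22.2% of genes above the median level. Those 5 were the 3 just named, Tapbp (-0.19) and Pdia3 (-0.16). The heavy chain gene H2-K1 was at -0.28, the transporter genes Tap1 and Tap2 at 0.032 and 0.0803, and the transactivator Nlrc5 at -0.10, all with overlapping groups.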

How the data were processed

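Total RNA of 6 mouse lungs was measured on whole-transcript arrays, 1 per mouse, 3 intact and 3 preconditioned. The deposited log2 values were made with RMA, and limma was also used, per the submitters' processing notes; for both, the version is not given in the sources used here. RMA evens out the arrays, so a real shift shared by most genes could be lost. The deposited values still held a broad difference between the groups. Of genes of level 7 to 9, 69.2% were below 0, with a median difference of -0.11. A second quantile normalization gave -0.024 for this median. Whether this arose from scaling or from the tissue was not tested. With 3 arrays a group, precision is limited.

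Of 41345 probe sets, 23521 had 1 symbol in the platform annotation, giving 22180 genes, each by its probe set with the highest mean. Of the 49 member genes, 3 had 2 probe sets. Genes were fitted with limma (lmFit, eBayes), without filter or covariate, with Benjamini-Hochberg over all genes. The fit was tested on simulated data. Alternatives covered scaling, level filter, variance prior, array weights, replicate block, choice of probe set and leaving out each lung. The labels call the lungs biological replicates. Members and lists were chosen with earlier results of these data known. Values in every lung are given for the catalytic genes, Psme1, Psme2, up to 8 core or regulatory particle genes by lowest p with the groups apart, the 2 highest positive differences, and genes said to be given for their values. Of the lists, Tap1, Usp14, Sem1, Uba6 and Nfe2l2 are also given in every lung, chosen after their values were seen. Same-numbered lungs correlated at -0.0626, -0.309 and -0.0648 (deviations from group means, over genes), so the replicate numbers did not pair them.

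Promoter sequences came from RefSeq (GRCm38.p6). R 4.3.3, limma 3.58.1, python 3.11.15 and matplotlib 3.10.9 were used.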

Additional observations from a re-analysis of the deposited data

How the results depend on the processing

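With the replicate number as a block, 14 proteasome genes were lower at an unadjusted p under 0.05, beside 10.4% of all genes. Of the proteasome genes 0 were called, and 4 of all genes were called in place of 21. The block changed no call of a proteasome gene. All genes called numbered 76 among genes above the median level, 55 with an intensity trend and robust prior and 1125 with array weights. They numbered 642 at an adjusted p under 0.1. Without intact replicate 1 they numbered 1228, and 2 to 4 when any other lung was left out. Proteasome genes called were 2 with array weights (Psmd7 and Psma8), 1 at an adjusted p under 0.1 (Psma8) and 0 to 2 with 1 lung left out (2 without intact replicate 1, Psmd5 and Psmd7). At an unadjusted p under 0.05, lower proteasome genes were 2 with a second quantile normalization and 2 with cyclic loess. With 1 lung left out they were 5 to 14. Of the regulatory particle they were 1, 1 and 3 to 7 in these settings. The shares of all genes lower were 9.22%, 9.73% and 7.43% to 15.2%. The regulatory particle median was -0.085 with the second quantile normalization, -0.074 with cyclic loess, -0.24 with median centring, -0.11 with the mean over probe sets, -0.073 relative to the median of genes of level 7 to 9 (an alternative chosen after seeing the data) and -0.20 to -0.10 with 1 lung left out. The core median was 0.077, 0.094 and -0.086 under the 3 scalings, 0.077 relative to that band and -0.076 to -0.0043 with 1 lung left out. The immunoproteasome median lay between -0.32 and 0.0013 with 1 lung left out. The balance of Psmb8 against Psmb5, Psmb9 against Psmb6 and Psmb10 against Psmb7 lay between -0.26 and 0.068, -0.43 and 0.038, and -0.10 and 0.22 with 1 lung left out. The cause of these shifts was not tested.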
